A study of Arabidopsis thaliana with 8 samples.

Results

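The comparison described here sets the 2 arrays of the fil-8 yab3-2 yab5-1 mutant (the triple mutant) against the 2 arrays of the fil-8 yab3-2 mutant (the double mutant), 4 of the 8 arrays of the series. Both mutants are in the Landsberg erecta (Ler) background and carry fil-8 and yab3-2, so by the labels the genotypes differ by yab5-1. Total RNA came from shoot apices of plants grown in short days and harvested 14 days after sowing, and each RNA was hybridised to 1 Affymetrix array. The other 4 arrays are Ler wild type of the same age. They enter no difference and are given as levels and in a second fit. The labels do not say whether the arrays of a genotype came from separate batches of plants, so what the p-values weigh is the spread between these arrays alone, and that spread may be technical. In whole apices, fewer cells of a type and less RNA per cell cannot be told apart.

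YABBY proteins are plant transcription factors with a zinc finger and an HMG-like domain. FIL, YAB3 and YAB5 are expressed on the abaxial side of young leaves, where they act together in the outgrowth of the leaf lamina, in leaf polarity and in keeping shoot meristem programmes out of leaves. Their functions overlap, so the loss of YAB5 is studied where FIL and YAB3 are already lost.

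Of 22746 probe sets left after the Affymetrix controls, 13467 had a log2 signal above 4 on at least 2 of the 4 mutant arrays and were tested with limma. The filter left 82 probe sets just inside, with a second-highest value from 4 to 4.1, and 77 just outside, from 3.9 to 4. The triple mutant arrays correlated with each other at r = 0.977 and the double mutant arrays at r = 0.961 across these probe sets, and arrays of different genotype at 0.933 to 0.952. Double mutant array 1 stood apart in 1 measure of RNA quality, since its 3′ control probe sets exceeded the 5′ ones by a mean of 1.41 log2 units, where the triple mutant arrays had 0.732 and 0.599 and the other double mutant array 0.593. Wild-type arrays 1 and 2 had 1.29 and 1.44, and arrays 3 and 4 had 0.501 and 0.466. Root and pollen or seed markers were low in both mutants, with EXPA7, EXPA18, ANX1, ANX2 and BAN at or below a log2 signal of 4 on all 4 mutant arrays, while PYK10, a beta-glucosidase of roots and hypocotyls, had 13.25 and 13.94 in the triple mutant and 12.58 and 13.33 in the double mutant. CLV3, a peptide gene of the shoot meristem's stem cells, was at 2.19 and 2.19 in the triple mutant, 4.32 and 3.89 in the double mutant and at most 2.59 on the wild-type arrays. With 1 array above 4 it fell outside the filter and was not tested.

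YAB5 itself had log2 signals of 5.28 and 5.02 in the triple mutant and 6.03 and 5.60 in the double mutant. Both triple mutant arrays were lower than both double mutant arrays, by a mean of -0.67 ± 0.23 log2 units (SE, n = 2 arrays each), but the difference did not pass limma's test (adjusted p = 0.292). Wild-type arrays 1 and 2 had 7.52 and 7.17, and arrays 3 and 4 had 5.51 and 5.32, close to the triple mutant. The sources used here do not place the yab5-1 lesion relative to the probes, so this signal does not check the labels. YAB3, mutated in both genotypes, had 4.40 and 5.50 in the triple mutant and 3.35 and 4.99 in the double mutant, against 8.35 to 9.48 in wild type. The mutants overlapped in it (difference 0.78 ± 0.70, adjusted p = 0.647). SEU, a co-regulator that binds YABBY proteins, had 9.02 and 8.93 in the triple mutant and 7.99 and 9.26 in the double mutant, with the genotypes overlapping (adjusted p = 0.761). FIL is not analysed here.

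The added loss of YAB5 was accompanied by a small set of large differences, most of them higher in the triple mutant. Of the 13467 probe sets, 66 (0.49%) passed at an adjusted p under 0.05 (limma, Benjamini-Hochberg), 51 (0.379%) higher and 15 (0.111%) lower in the triple mutant. Among the 7176 genes with a probe set of their own, 42 (0.585%) passed, 33 raised (0.46%) and 9 lowered (0.125%). Whether or not they passed, 539 probe sets (4%) were over 1 log2 unit higher and 463 (3.44%) over 1 lower in the triple mutant. Over 2 log2 units there were 124 (0.921%) higher and 61 (0.453%) lower, and over 4 there were 23 (0.171%) and 7 (0.052%), while the median over all probe sets was -0.03. At an unadjusted p under 0.05 there were 2178 probe sets. All 66 calls were lost when any 1 of the 4 arrays was left out of the fit, which leaves 1 residual degree of freedom. With the 3′ minus 5′ difference as a covariate limma called 0, with 2031 at an unadjusted p under 0.05. That fit also leaves 1 residual degree of freedom, and double mutant array 1 stands apart in the covariate. Its 0 calls therefore cannot separate RNA quality from the lost degree of freedom. The 4 wild-type arrays were also added to lend the fit their spread, with arrays 1 and 2 and arrays 3 and 4 as separate groups. In that fit 63 of the 66 were called. For 27 of the 51 raised probe sets all 6 other arrays lay below 2.3. There the added arrays lie at the floor and bring almost no spread, so a kept call is little check. Below, the fit with the wild-type arrays means this version, which keeps the spread between the wild-type pairs out of the error.

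**Figure D1:**
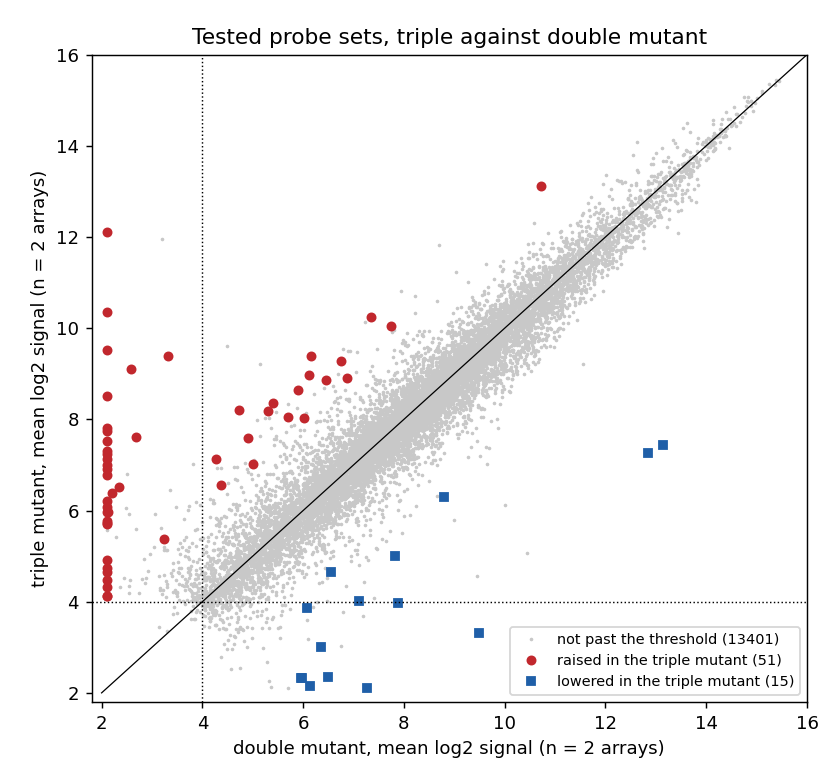
Mean log2 signal of each tested probe set in the triple mutant (vertical axis, n = 2 arrays) against the double mutant (horizontal axis, n = 2 arrays), with the 51 raised and 15 lowered probe sets in colour. Most raised probe sets stand in a column near a log2 signal of 2.1 in the double mutant, left of the dotted filter level of 4.

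Most raised probe sets were near the floor in the other genotypes. Both double mutant arrays were at or below a log2 signal of 4 for 33 of the 51, and all 6 other arrays, wild type included, for 32. For 27 of them all 6 other arrays lay below 2.3, close to the lowest value the authors' processing gives. Among all tested probe sets, 85 were above 4 on both triple mutant arrays and at or below 4 on the 6 others, whereas 8 were so in the double mutant. The reverse pattern, at or below 4 on both arrays of 1 genotype and above 4 on the 6 others, was found in 39 probe sets of the triple mutant and 3 of the double mutant. Arrays at the floor show no spread, which lowers the p-values of such genes. The 33 raised probe sets with both double mutant arrays at or below 4 could pass the filter only through the triple mutant arrays. Lowered ones with both triple mutant arrays at or below 4 passed it only through the double mutant arrays. Their p-values are therefore not independent of that selection. Without the filter limma called 31 probe sets, 14 of them among the 66. With every value below 4 set to 4, an alternative chosen after seeing the data, 25 probe sets passed, of which 23 belong to the 66. Of the 15 most raised and 9 lowered genes described next, 11 of 24 kept their call.

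The most raised gene was AT2G25510, with log2 signals of 11.94 and 12.26 in the triple mutant and 2.1 on both double mutant and all 4 wild-type arrays, at least 274-fold higher when set against the filter level of 4 (limma, adjusted p = 0.00496). AT2G25450, close to it in gene order, had 10.24 and 10.45 in the triple mutant and 2.1 on both double mutant arrays, at least 81.3-fold higher (adjusted p = 0.00496). Both genes were at the floor on all 6 other arrays. AT1G52100 had 8.74 and 10.32 in the triple mutant and 2.11 on both double mutant arrays, at least 46.1-fold higher (adjusted p = 0.0432). AT5G56910 had 9.34 and 9.45 in the triple mutant against 3.35 and 3.3 in the double mutant, at least 42.0-fold higher (adjusted p = 0.00636), and AT1G65370 had 8.51 and 9.71 in the triple mutant against 2.64 and 2.52 in the double mutant, at least 34.5-fold higher (adjusted p = 0.0323). In neither gene did a wild-type array pass 4. AT3G44430 (8.53 and 8.47), AT1G63880 (7.53 and 7.94) and AT5G45500 (7.54 and 7.53) were likewise at the floor on all 6 other arrays, with lower bounds of 22.6-fold, 13.3-fold and 11.6-fold. These loci carry only a locus number in the gene tables used here, so no function is given for them.

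Among the 15 most raised, 1 gene has a name. LUL1, a RING-type E3 ubiquitin ligase related to LOG2, had log2 signals of 6.77 and 7.23 in the triple mutant and 2.1 on each of the 2 double mutant and 4 wild-type arrays, at least 7.98-fold higher (limma, adjusted p = 0.0148). With values below 4 set to 4 its call was lost (adjusted p = 0.0533). Of 8 tested ubiquitin ligases of the PUB and LUL groups it alone passed, and their median difference was -0.02. The other 6 of the 15 were AT5G56380, AT3G43740, AT3G61010, AT1G51430, AT5G05750 and AT1G65870, with lower bounds from 3.89-fold to 9.83-fold and both double mutant arrays between 2.1 and 2.2. AT3G61010 was called by both of its probe sets, with differences of 5.03 and 2.56.

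**Figure D2:**
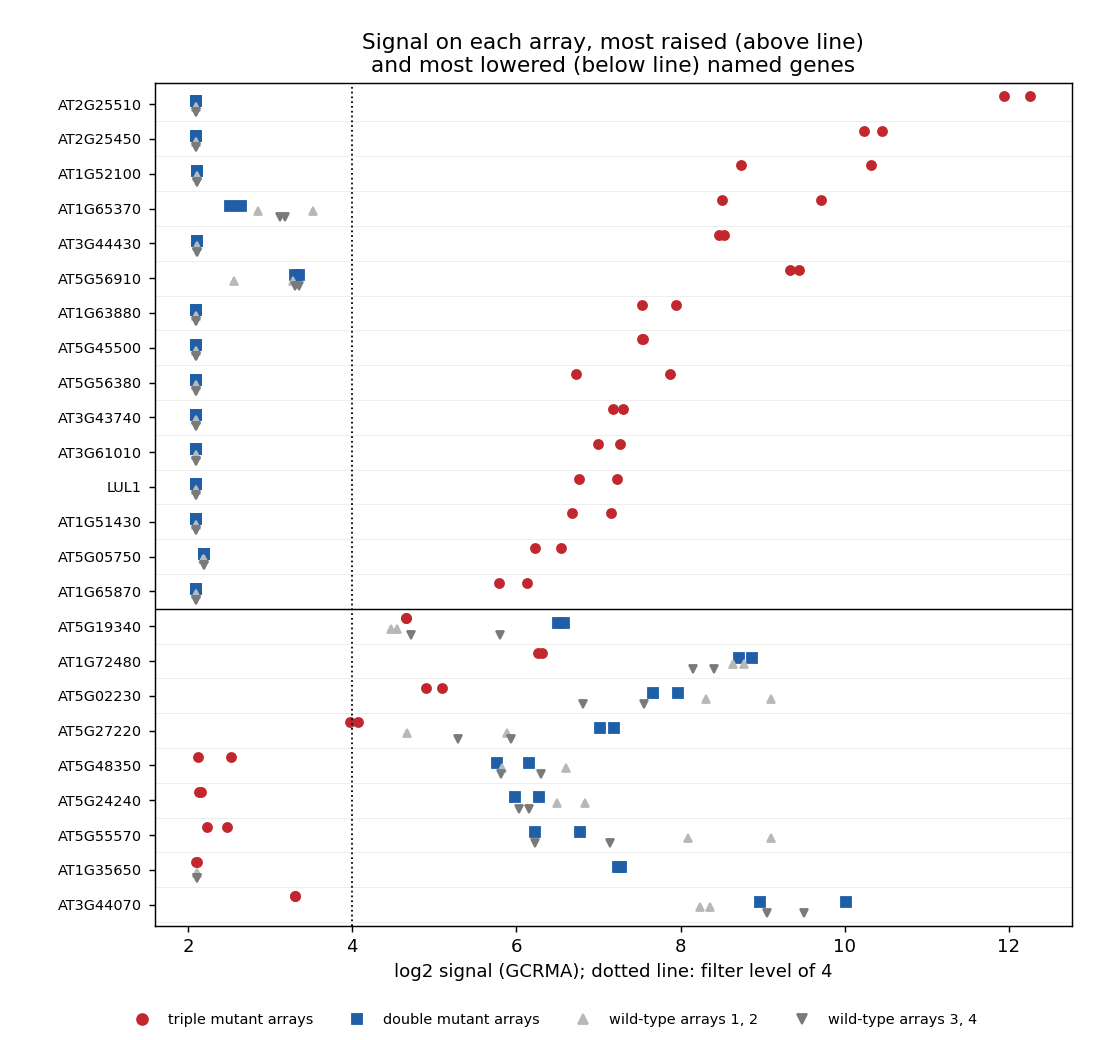
Log2 signal on each array for the 15 most raised genes (above the line) and the 9 lowered genes (below it), each row holding the 2 triple mutant arrays, the 2 double mutant arrays and the 4 wild-type arrays from top to bottom, with the filter level of 4 dotted. Triple mutant arrays stand alone on the right in the upper block, and in the lower block they lie left of the double mutant arrays in each row.

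Besides LUL1, the called genes with a name were CSA1 and GSTU16. CSA1, a nucleotide-binding leucine-rich repeat gene of the TIR class first found through a shade-avoidance phenotype, had 5.57 and 5.89 in the triple mutant and 2.1 on both double mutant arrays and all wild-type arrays, at least 3.32-fold higher (limma, adjusted p = 0.0183). It was named after its values were seen, and with values below 4 set to 4 its call was lost (adjusted p = 0.0911). GSTU16, a tau-class glutathione transferase, had 8.25 and 8.13 in the triple mutant and 5.03 and 5.56 in the double mutant, a difference of 2.90 ± 0.24 (limma, adjusted p = 0.0497). With the wild-type arrays in the fit its call was lost when double mutant array 1 or either triple mutant array was left out (adjusted p = 0.0654 to 0.109). Wild-type arrays 1 and 2 had 7.08 and 7.30 for GSTU16 and arrays 3 and 4 had 5.0 and 4.05. The other 5 glutathione transferases tested did not pass and differed by -0.47 to 0.14.

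ZW9, a gene with a TRAF-like (MATH) domain, had high signals of 11.89 and 12.01 in the triple mutant, with 4.25 and 2.16 in the double mutant and 2.16 on all 4 wild-type arrays. The difference of 8.75 ± 0.75 just missed the threshold in the 4-array fit (limma, adjusted p = 0.0535) and passed with the wild-type arrays in the fit (adjusted p = 0.000544).

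Among the 9 lowered genes, most had a triple mutant signal below every other array. AT3G44070 had 3.31 on both triple mutant arrays and 10.02 and 8.97 in the double mutant, at least 45.1-fold lower (limma, adjusted p = 0.0287), with 8.24 to 9.51 in wild type. With values below 4 set to 4 its adjusted p was 0.0533. AT5G55570, AT5G24240 and AT5G48350 were likewise at or below 2.52 on both triple mutant arrays and above 5.7 on the 6 others, with lower bounds of 5.65-fold, 4.38-fold and 3.89-fold. AT1G72480 had 6.27 and 6.31 in the triple mutant, 8.71 and 8.87 in the double mutant and 8.15 to 8.77 in wild type, a difference of -2.50 ± 0.16 (adjusted p = 0.0287). AT5G02230 had 5.10 and 4.89 in the triple mutant and 7.67 and 7.97 in the double mutant, with 6.81 to 9.11 in wild type (-2.82 ± 0.19, adjusted p = 0.0323). In these 6 genes the triple mutant arrays lay below all 6 others.

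In the other 3 lowered genes the double mutant arrays lay above all 6 others. AT1G35650, annotated as a pseudogene, had 2.1 and 2.11 in the triple mutant, 7.24 and 7.27 in the double mutant and 2.11 on all 4 wild-type arrays, at least 9.56-fold lower in triple than in double mutants (limma, adjusted p = 0.00705). Its probe set is of the shared type (_s_at), which can match several transcripts, so the signal may not be from this locus alone. AT5G19340 had 4.65 and 4.65 in the triple mutant and 6.51 and 6.58 in the double mutant, with 4.48 to 5.80 in wild type (-1.89 ± 0.15, adjusted p = 0.0443). AT5G27220 had 3.97 and 4.07 in the triple mutant and 7.19 and 7.02 in the double mutant, with wild type between them at 4.67 to 5.94 (-3.08 ± 0.16, adjusted p = 0.0192). With the wild-type arrays in the fit, AT5G27220, AT5G02230 and AT5G19340 lost their call whichever mutant array was left out, and AT5G55570 with 3 of the 4. Over all 15 lowered probe sets, the triple mutant arrays were below all 6 others in 13 and the double mutant arrays above all 6 others in 4, against 1668 (12.4%) and 354 (2.63%) of all 13467 tested. Over the 51 raised ones, the triple mutant arrays were above all 6 others in 48, against 1321 (9.81%) of all tested. The double mutant arrays were below all 6 others in 5, against 189 (1.4%). Called probe sets were chosen for a difference between the mutants, so these shares of all tested are not like comparisons. Of all tested, 2777 were higher and 3673 lower in the triple mutant without overlap with the double mutant. The 1321 and the 1668 are parts of these.

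Many called genes lay near one another along the chromosomes. Of the 42 called genes with a place in the gene order, 17 (40.5%) had another called gene within 50 genes, against 743 of 7097 genes that were not called (10.5%). With the wild-type arrays in the fit the shares lay closer together, at 70 of 139 called genes (50.4%) against 2297 of 7000 others (32.8%). The 17 formed 8 runs of neighbours on chromosomes 1, 2, 3 and 5. One run on chromosome 1 holds AT1G63880, AT1G64270 and AT1G64370, another holds GSTU16 and AT1G59960, and on chromosome 3 the raised AT3G43740 lies near the lowered AT3G44070. By chromosome, 14 of 1877 tested genes were called on chromosome 1 (0.746%), 5 of 1022 on chromosome 2 (0.489%) and 8 of 1498 on chromosome 3 (0.534%). On chromosome 4 it was 0 of 1014 and on chromosome 5 15 of 1728 (0.868%). Over all 7139 genes placed, 42 were called (0.588%). On chromosome 4, 128 genes had an unadjusted p under 0.05 in limma's test (12.6%, against 15.8% of all 7139 genes placed), and 8 were called with the wild-type arrays in the fit. No test was made of this grouping.

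YAB5 lies on chromosome 2. None of the 45 tested genes within 100 genes of it was called by limma, and none with the wild-type arrays in the fit. At an unadjusted p under 0.05 there were 6 (13.3%), against 15.8% of all genes placed. The run of AT2G25510 and AT2G25450 lies 117 and 124 genes from YAB5, so that 2 of the 50 tested genes between 100 and 200 genes away were called (4%). Over all genes placed the share called was 0.588%. The next called gene on that chromosome was 1140 genes away. A difference due to yab5-1 and one due to other sequence that the triple mutant does not share with the double mutant cannot be told apart in this design.

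**Figure D3:**
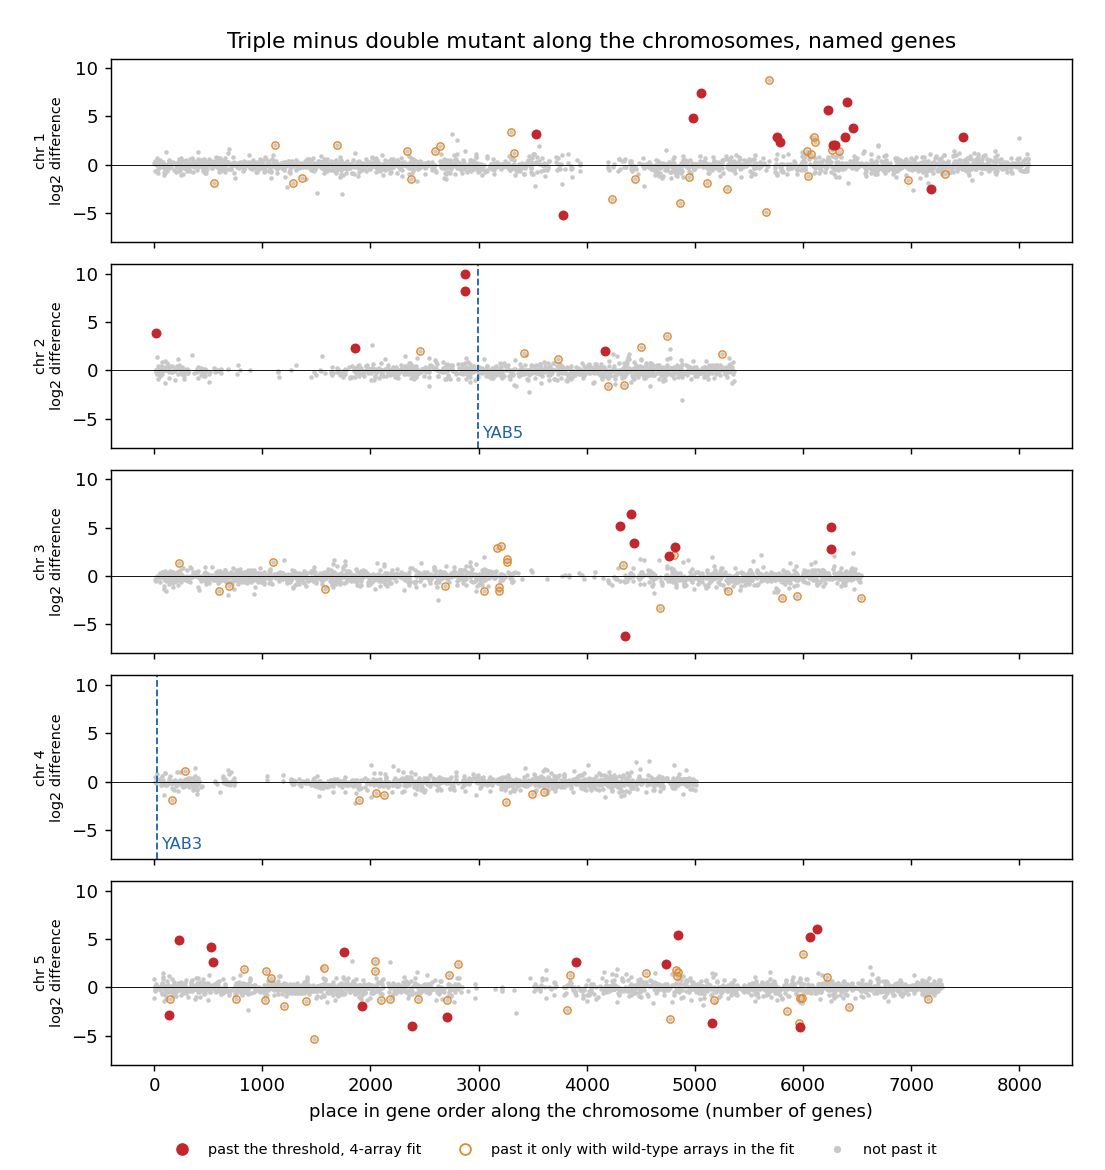
Log2 difference, triple minus double mutant, of each named gene against its place in gene order on chromosomes 1 to 5, with the genes past the threshold filled and those past it only with the wild-type arrays in the fit as open circles. Runs of called genes lie on chromosomes 1, 2, 3 and 5, the one on chromosome 2 at 117 and 124 genes from YAB5, and none is filled on chromosome 4.

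Away from these on and off genes, the functional groups showed smaller differences, with medians between -1.29 and 1.37 in lists of at least 4 tested genes. The lists are small, because only part of each pathway has a probe set with a gene name here. Genes with only a locus number, among them most of the called genes, are in no pathway list or family. Each list therefore speaks for its named members alone. For named genes as a whole, the median difference was -0.04 and 55.1% of differences were below 0. The triple mutant arrays were both below the double mutant arrays in 28% of genes and both above in 19.7%. Of the 7139 named genes with a place in gene order, 15.8% had an unadjusted p under 0.05 in limma's test. With the wild-type arrays in the fit, 141 genes (1.96%) passed, 76 raised (1.06%) and 65 lowered (0.906%). Apart from LUL1 and GSTU16, no list member passed in the 4-array fit.

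**Figure D4:**
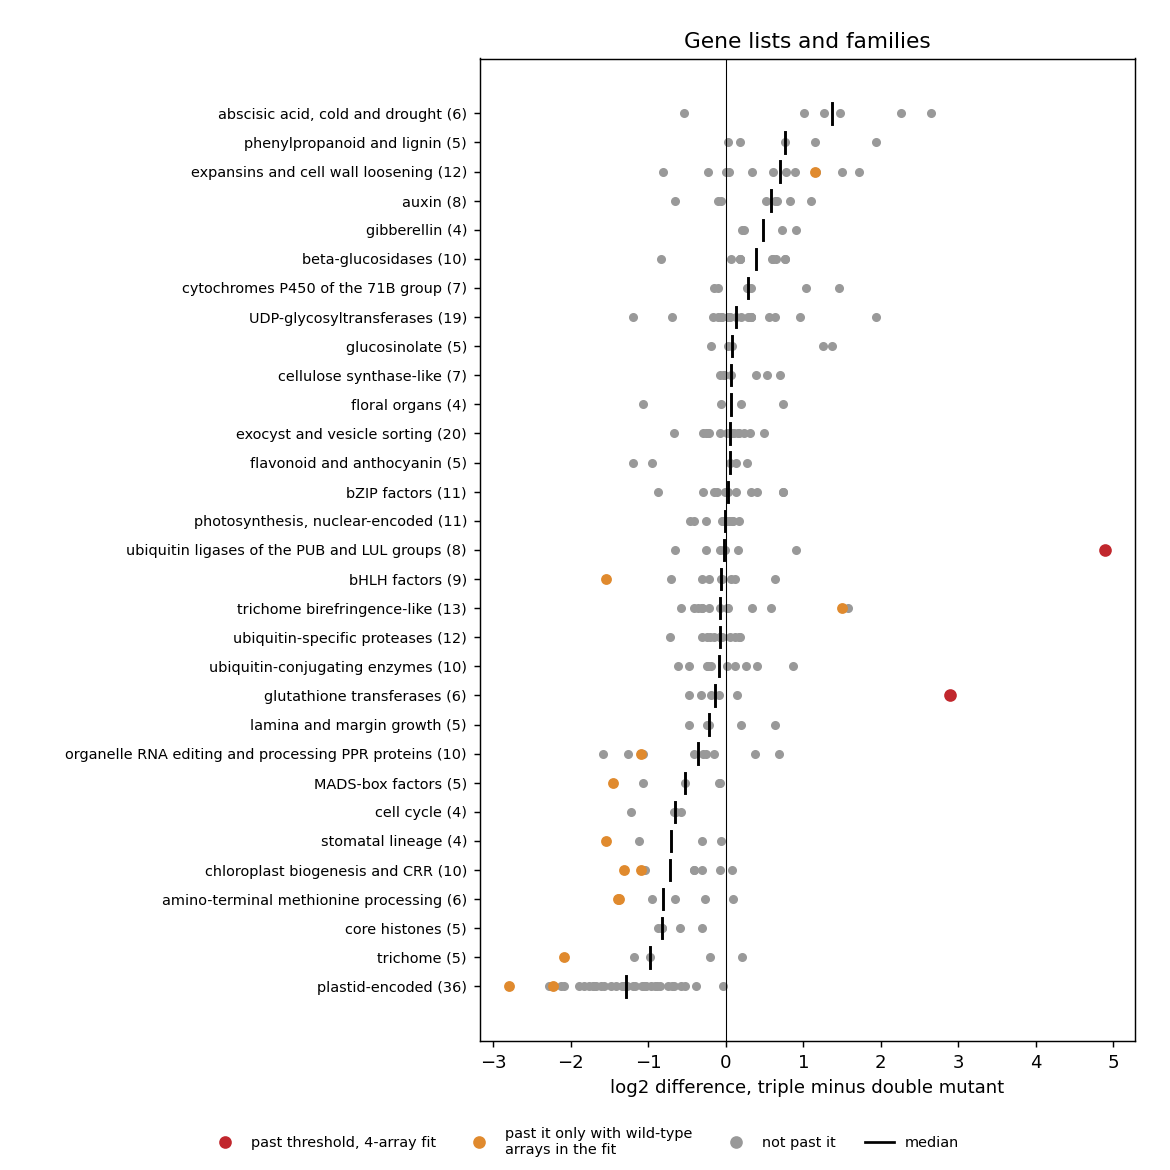
Log2 difference, triple minus double mutant, of each tested member (dots) of the gene lists and families with at least 4 tested members, with the number tested in brackets and the median as a bar. Plastid, trichome, histone, chloroplast and cell division lists lie left of 0, and the cold and drought, phenylpropanoid and expansin lists right of it, with few members past the threshold.

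Cell division genes all had lower values in the triple mutant, and none passed alone. The Aurora kinases AUR1, AUR2 and AUR3, which act at the mitotic spindle and the chromosomes, the replication helicase subunit PRL (MCM7) and 5 core histone genes were measured. AUR2 had 8.71 and 7.82 in the triple mutant and 9.56 and 9.41 in the double mutant (difference -1.22 ± 0.35, adjusted p = 0.242), and AUR1 had 9.78 and 9.47 in the triple mutant against 10.30 and 10.28 in the double mutant (-0.66 ± 0.18, adjusted p = 0.231). HTR12, the centromeric histone H3, had 5.81 and 5.66 in the triple mutant against 6.61 and 6.61 in the double mutant (-0.88 ± 0.15, adjusted p = 0.157). All 9 genes had both triple mutant arrays below both double mutant arrays, where 28% of named genes did, and their median difference was -0.66. The median was -0.78 against array 1 and -0.61 against array 2 for the 4 cell division genes, and -0.88 and -0.73 for the 5 histones. At an unadjusted p under 0.05 in limma's test there were 3 of the 4 cell division genes and 4 of the 5 histones. The share over named genes with a place in gene order was 15.8%. HTB11, an H2B gene, had 8.51 and 8.12 in the triple mutant and 9.24 and 9.05 in the double mutant, with 8.72 to 9.27 in wild type. For the cell division list the array medians were 8.92 and 8.37 in the triple mutant, 9.59 and 9.50 in the double mutant, and in wild type 8.92 and 8.87 on arrays 1 and 2 and 10.08 and 10.10 on arrays 3 and 4, so the wild-type pairs lay on either side of the double mutant.

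Nuclear genes of chloroplast biogenesis also had lower values, with none past the threshold in the 4-array fit. At an unadjusted p under 0.05 there were 5 of 10, against 15.8% of named genes with a place in gene order (limma). Of 10 tested genes for chlororespiratory reduction (the chloroplast NADH dehydrogenase-like complex), chlorophyll synthesis and plastid development, 9 lay below 0. In 7 of them both triple mutant arrays were below both double mutant arrays, where 28% of named genes had this. The median was -0.73, or -0.82 against double mutant array 1 and -0.60 against array 2. CRR42, needed for that complex, had 7.26 and 7.07 in the triple mutant and 8.68 and 8.28 in the double mutant (-1.32 ± 0.21, adjusted p = 0.144, and 0.0470 with the wild-type arrays in the fit). CRR21, a pentatricopeptide repeat (PPR) protein of chloroplast RNA editing, had 5.69 and 5.43 in the triple mutant against 6.55 and 6.75 in the double mutant (-1.09 ± 0.19, adjusted p = 0.157, and 0.0423 with wild type). PAC (PALE CRESS), a protein of early chloroplast development, had 8.28 and 8.14 in the triple mutant against 9.70 and 8.91 in the double mutant, and OTP81, another PPR protein, had 5.22 and 5.43 in the triple mutant against 7.20 and 6.62 in the double mutant. OTP84 had both triple mutant arrays at or below 3.47, against 5.31 and 4.04 in the double mutant. Of the 10 PPR genes, 3 of which are in the list above, 8 lay below 0 with a median of -0.35.

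The enzymes that trim the amino end of new proteins showed the same direction. Peptide deformylase removes the formyl group from plastid-made proteins and methionine aminopeptidase then removes the first methionine. PDF1B had 9.47 and 8.97 in the triple mutant and 10.44 and 10.75 in the double mutant (-1.38 ± 0.25, adjusted p = 0.163, and 0.0364 with the wild-type arrays in the fit), and MAP1C had 9.82 and 9.33 in the triple mutant against 11.03 and 10.91 in the double mutant (-1.39 ± 0.23, adjusted p = 0.148, and 0.0379 with wild type). Of the 6 genes of this family, which was chosen after values were seen, 5 lay below 0. In 4 of them both triple mutant arrays were below both double mutant arrays, where 28% of named genes had this. HCF101, which carries iron-sulphur clusters to photosystem I, had 10.02 and 10.00 in the triple mutant against 11.16 and 10.99 in the double mutant, and SECE1, a subunit of the thylakoid Sec translocase, had 9.12 and 8.85 in the triple mutant against 10.66 and 10.10 in the double mutant. Both passed only with the wild-type arrays in the fit (adjusted p = 0.0364 and 0.0423) and were picked after values were seen.

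Nuclear photosynthesis genes lay near 0. The 11 nuclear photosynthesis genes had a median difference of -0.01, with none past the threshold and 0 at an unadjusted p under 0.05, and SBPASE, a Calvin cycle phosphatase, had 12.99 and 13.33 in the triple mutant and 13.74 and 13.52 in the double mutant. Plastid-encoded transcripts had lower values, with none past the threshold (limma), all 36 below 0 and a median of -1.29. In 21 both triple mutant arrays were below both double mutant arrays, where 28% of named genes had this. At an unadjusted p under 0.05 there were 11, against 15.8% of named genes with a place in gene order. For ndhI, a subunit of the NADH dehydrogenase-like complex, signals were 4.24 and 4.61 in the triple mutant and 6.86 and 7.57 in the double mutant (adjusted p = 0.0843, and 0.0191 with the wild-type arrays in the fit). The plastid transcripts varied widely between arrays of 1 genotype. Their array medians were 5.87 and 6.04 in the triple mutant, 6.37 and 8.43 in the double mutant, 12.90 and 12.72 on wild-type arrays 1 and 2 and 4.0 and 5.22 on arrays 3 and 4. Against double mutant array 1 alone the median difference was -0.45 and against array 2 alone -2.39. The part of RNA preparation or labelling in this was not tested.

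**Figure D5:**
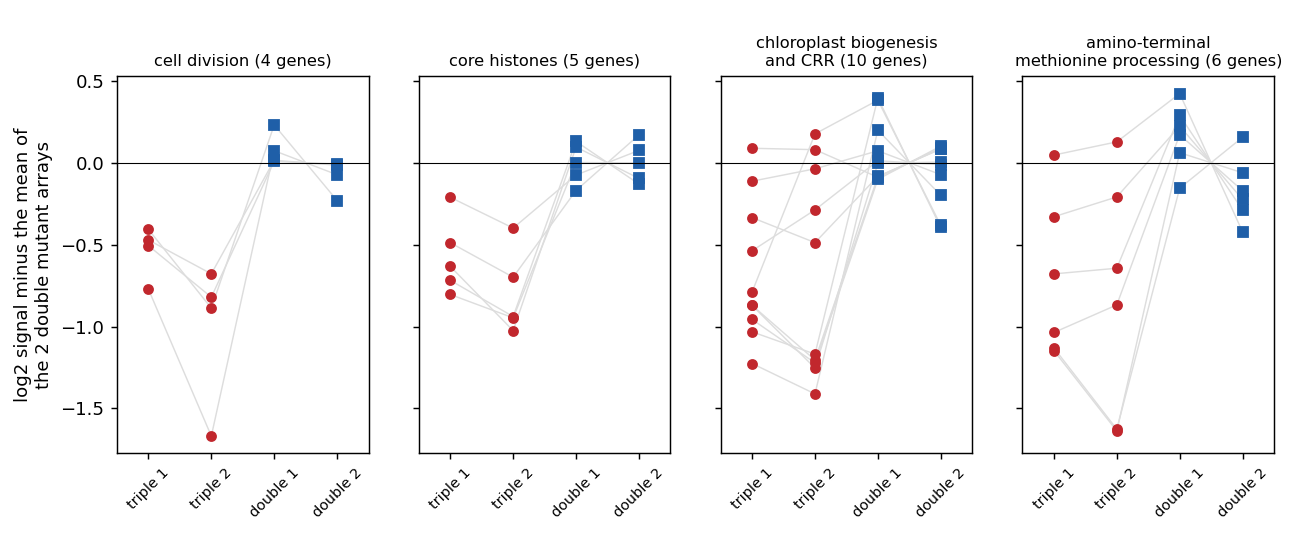
Log2 signal of each gene on the 2 triple mutant and 2 double mutant arrays minus the mean of its double mutant arrays, for cell division genes, core histones, chloroplast biogenesis genes and amino-terminal methionine processing genes, with lines joining the values of a gene. All 9 cell division and histone genes lie below both double mutant arrays on each triple mutant array.

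Of the 9 trichome and stomatal genes tested, 8 had lower values in the triple than in the double mutant and none passed in the 4-array fit (limma). At an unadjusted p under 0.05 there were 4 of the 9, against 15.8% of named genes with a place in gene order. GIS, a zinc finger protein that promotes trichome initiation, had 3.51 and 3.40 in the triple mutant and 5.38 and 5.70 in the double mutant, at least 2.91-fold lower (adjusted p = 0.0597, and 0.00262 with the wild-type arrays in the fit), with 4.38 and 4.29 on wild-type arrays 1 and 2 and 3.40 on arrays 3 and 4. GIS also passed when the arrays were quantile-normalised or median-centred (adjusted p = 0.0322 and 0.0340) and missed the threshold with values below 4 set to 4 (adjusted p = 0.106). SIM, a cyclin-dependent kinase inhibitor that starts endoreduplication in trichomes, had 6.26 and 5.84 in the triple mutant against 7.39 and 7.09 in the double mutant, with 6.86 to 7.80 in wild type (-1.19 ± 0.23, adjusted p = 0.174). The 5 trichome genes had a median of -0.98, or -0.40 with values below 4 set to 4, and lay at -0.62 and -1.33 without double mutant array 1 and 2. AN, a regulator of trichome branching, went the other way, with 10.19 and 10.20 in the triple mutant and 9.80 and 10.16 in the double mutant (0.21 ± 0.19, adjusted p = 0.642). MUTE, the bHLH factor that ends the divisions of the stomatal lineage, had 3.33 and 2.82 in the triple mutant and 4.64 and 4.60 in the double mutant, at least 1.53-fold lower, with wild type at 4.04 to 4.55 (adjusted p = 0.136, and 0.0306 with wild type). STOMAGEN, a mesophyll peptide that promotes stomata, had 7.45 and 8.25 in the triple mutant against 9.59 and 8.34 in the double mutant (adjusted p = 0.408). All 4 stomatal genes lay below 0 with a median of -0.71, which was -0.18 without triple mutant array 1 and -1.16 without triple mutant array 2. For MUTE and STOMAGEN the genotypes did not overlap, where 28% of named genes were lower without overlap.

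No listed regulator of lamina growth or flowering passed in the 4-array fit (limma). At an unadjusted p under 0.05 there were 0 of 5 lamina and margin genes, 1 of 4 floral regulators and 1 of 5 MADS-box genes. Of named genes with a place in gene order, 15.8% were under that level. SPT, a bHLH factor, differed most among the lamina and margin genes, with 7.31 and 8.06 in the triple mutant and 7.38 and 6.71 in the double mutant (0.64 ± 0.38, adjusted p = 0.492). NGA2, a B3 factor of leaf margins, had 3.97 and 4.37 in the triple mutant and 4.64 and 4.65 in the double mutant (adjusted p = 0.362). Of the 5 genes, 2 lay above 0 and 3 below. Their median was -0.21, which was 0.51 without triple mutant array 1 and -0.45 without triple mutant array 2. AGL87, a MADS-box factor, had 5.79 and 5.80 in the triple mutant against 7.38 and 7.12 in the double mutant, with 6.88 to 8.04 in wild type (-1.46 ± 0.17, adjusted p = 0.0920, and 0.0112 with the wild-type arrays in the fit). AGL24, a MADS-box promoter of flowering, had 4.53 and 3.79 in the triple mutant against 5.70 and 4.76 in the double mutant (adjusted p = 0.350). All 5 MADS-box genes lay below 0, 3 with all arrays apart, where 28% of named genes were lower without overlap.

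Hormone genes had mostly higher values in the triple mutant, with none past the threshold. WES1 (GH3.5), an enzyme that conjugates auxin to amino acids, had 12.90 and 12.60 in the triple mutant, 11.44 and 11.86 in the double mutant and 9.43 to 10.63 in wild type, so the genotypes were ordered without overlap (triple minus double 1.1 ± 0.23, adjusted p = 0.184). GH3.3 had 7.44 and 8.01 in the triple mutant against 6.59 and 7.21 in the double mutant, but 7.88 to 9.58 in wild type. Of 8 auxin genes, 5 lay above 0 and the median was 0.58, or 0.10 against double mutant array 2 alone. The gibberellin receptor GID1A had 8.15 and 8.72 in the triple mutant, 7.14 and 7.92 in the double mutant and 6.36 to 7.53 in wild type (adjusted p = 0.344), and GID1B had 5.65 and 6.67 in the triple mutant against 5.21 and 5.67 in the double mutant (adjusted p = 0.479). The 4 gibberellin genes all lay above 0, with a median of 0.48 and none at an unadjusted p under 0.05. ARR15, a type-A response regulator that cytokinin induces, had 7.45 and 7.57 in the triple mutant against 6.65 and 5.97 in the double mutant (1.2 ± 0.28, adjusted p = 0.200), and the 2 cytokinin genes tested had a median of 0.86, or 0.37 against double mutant array 1 and 1.36 against array 2.

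Monolignol genes had higher values in the triple mutant, with none past the threshold. UGT72E1, a glucosyltransferase of monolignol aldehydes, had 6.17 and 7.53 in the triple mutant and 4.51 and 5.31 in the double mutant (1.94 ± 0.57, adjusted p = 0.249). CCR2, a cinnamoyl-CoA reductase, had 7.05 and 5.91 in the triple mutant against 4.99 and 5.68 in the double mutant, with at most 3.61 in wild type (adjusted p = 0.359), and BGLU45, a beta-glucosidase of monolignol glucosides, had 7.22 and 7.21 in the triple mutant against 6.37 and 6.53 in the double mutant, with at most 3.56 in wild type (0.76 ± 0.16, adjusted p = 0.179). In these last 2 genes both mutants lay above wild type and the triple mutant lay highest. All 5 phenylpropanoid genes were above 0 with a median of 0.76. In limma's test 2 of the 5 had an unadjusted p under 0.05, against 15.8% of named genes with a place in gene order. Of 10 beta-glucosidases, 9 lay above 0 with a median of 0.39, and of 0.20 to 0.50 with 1 array left out. The exception, BGLU40, had the largest difference of the family, with 8.79 and 8.14 in the triple mutant against 9.44 and 9.15 in the double mutant (-0.83 ± 0.29, adjusted p = 0.293).

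Wall-loosening genes also had mostly higher values. Of 12 expansins and related endoglucanases, 9 lay above 0 with a median of 0.69, but 1.18 against double mutant array 1 and 0.10 against array 2. EXPA20 had 6.01 and 5.72 in the triple mutant, 3.47 and 4.83 in the double mutant and at most 3.47 in wild type (1.72 ± 0.51, adjusted p = 0.249), and EXPB1 had 8.12 and 7.82 in the triple mutant against 5.66 and 7.29 in the double mutant (adjusted p = 0.342). GH9B13, an endo-glucanase, had 10.68 and 10.46 in the triple mutant, 9.32 and 9.51 in the double mutant and 7.93 to 9.01 in wild type, and passed with the wild-type arrays in the fit (1.15 ± 0.18, adjusted p = 0.139 without and 0.0330 with them). Of 13 trichome birefringence-like genes, a family that acetylates wall polysaccharides, the median was -0.07. TBL36 had 6.93 and 7.77 in the triple mutant against 6.02 and 5.53 in the double mutant, and TBL32 had 4.94 and 5.16 in the triple mutant against 3.77 and 3.33 in the double mutant, at least 2.07-fold higher (adjusted p = 0.137, and 0.0343 with wild type). The TBL32 probe set is also of the shared type that can match several transcripts.

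None of the 3 sulphur and 5 glucosinolate genes listed passed, with or without the wild-type arrays in the fit (limma). Called genes with only a locus number were matched to neither list, so any members of these pathways among them are missed here. At an unadjusted p under 0.05 there were 1 of the 3 sulphur and 1 of the 5 glucosinolate genes, against 15.8% of named genes with a place in gene order. APS4, an ATP sulfurylase that starts sulphate assimilation, had 9.92 and 9.84 in the triple mutant, 8.21 and 8.52 in the double mutant and 6.17 to 7.97 in wild type, ordered without overlap (1.52 ± 0.18, adjusted p = 0.0936), while the median of the 3 tested sulphur genes was -0.06, or -0.29 and 0.32 without double mutant array 1 and 2. AOP3, which modifies aliphatic glucosinolate side chains, had 11.66 and 12.03 in the triple mutant against 10.48 and 10.46 in the double mutant (1.38 ± 0.20, adjusted p = 0.125), and BCAT4, an aminotransferase at the start of methionine chain elongation, had 9.85 and 11.41 in the triple mutant against 9.57 and 9.18 in the double mutant (adjusted p = 0.392). Wild type ranged from 10.55 to 12.72 for AOP3 and from 10.31 to 13.31 for BCAT4, with the double mutant below it in both. The 5 glucosinolate genes had a median of 0.08, and of 0.12 to 0.46 with 1 array left out.

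Cold, drought and pigment genes varied within genotypes. HIS1-3, a drought-induced linker histone, had 8.91 and 7.76 in the triple mutant and 8.54 and 2.84 in the double mutant, with at most 2.23 in wild type (2.64 ± 2.04, adjusted p = 0.591), so 1 double mutant array lay with the triple mutant and 1 with wild type. COR15A, a cold-induced chloroplast protein, had 8.13 and 5.76 in the triple mutant against 5.79 and 3.58 in the double mutant. The median of the 6 cold and drought genes was 1.37, or 0.48 against double mutant array 1 and 2.46 against array 2. Of the 6, 1 gene was higher without overlap, where 19.7% of named genes were. UF3GT and DFR, enzymes of anthocyanin synthesis, had 5.79 and 9.09 and 7.51 and 11.06 in the triple mutant, against 8.65 and 8.62 and 10.21 and 10.28 in the double mutant, so the spread between the triple mutant arrays exceeded the difference. The 5 flavonoid genes had a median of 0.05, which was 0.53 without triple mutant array 1 and -1.33 without triple mutant array 2.

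No member matched by gene name to the remaining families passed in the 4-array fit (limma). Called genes with only a locus number were not matched, so any members of these families among them are missed here. JAL22 and JAL33, jacalin-related lectins, had 7.71 and 9.53 and 8.80 and 10.55 in the triple mutant, against 7.01 and 7.88 and 8.25 and 9.14 in the double mutant, overlapping in both, and the 3 jacalin genes had a median of 0.99, which was 1.86 without triple mutant array 1 and 0.11 without triple mutant array 2. CYP71B26, a cytochrome P450, had 6.19 and 7.42 in the triple mutant against 5.35 and 5.35 in the double mutant (1.46 ± 0.45, adjusted p = 0.263). In its group 4 of 7 genes were higher without overlap, where 19.7% of named genes were. The median of the group was 0.29, or 0.020 without double mutant array 1. UBC28, a ubiquitin-conjugating enzyme, had 12.59 and 12.92 in the triple mutant against 11.92 and 11.84 in the double mutant (adjusted p = 0.187), in a family of 10 with a median of -0.09. Medians lay from -0.07 to 0.13 in 6 more families, namely UDP-glycosyltransferases, bZIP factors, bHLH factors, cellulose synthase-like genes, ubiquitin-specific proteases, and exocyst and vesicle sorting genes. The 2 adaxial genes had a median of -0.13, the 4 floral regulators 0.07 and the 3 defence genes -0.04, and all 3 medians changed sign with 1 array left out or against 1 double mutant array. Lists with 1 tested gene gave 1.48 for STZ (heat and handling), 0.02 for GI (clock), 0.65 for PYK10 (root), 0.29 for CLE41 (vascular) and -0.18 for DME (transposon silencing), and none of these passed (limma, adjusted p = 0.486 to 0.986). STZ had 5.74 and 6.54 in the triple mutant and 2.99 and 6.33 in the double mutant, so its difference was -0.19 without double mutant array 1. The lists for abaxial identity, the shoot meristem, epidermis, jasmonate, and pollen and seed had no tested member.

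Several named genes of other functions passed only with the wild-type arrays in the fit. They were picked for this after values were seen, and their values describe the contrast. That fit takes the wild-type arrays as 2 separate pairs and gained 19 calls among the genes recomputed. With wild type as 1 group, 4 calls were gained and 4 lost, so most of the 19 depend on the split of wild type. ECS1, a cell wall protein gene, had 6.22 and 5.62 in the triple mutant and 2.80 and 2.29 in the double mutant, at least 3.78-fold higher, but 4.35 and 6.06 on wild-type arrays 3 and 4. BETA-VPE, a vacuolar cysteine protease, had 5.29 and 5.92 in the triple mutant against 2.98 and 2.39 in the double mutant, at least 3.04-fold higher, with at most 3.06 in wild type. CuAO1, a copper amine oxidase that breaks down polyamines, had 8.45 and 8.64 in the triple mutant, 6.61 and 5.83 in the double mutant and 4.0 to 5.61 in wild type (2.32 ± 0.31, adjusted p = 0.114, and 0.0112 with wild type). NET4B, an actin-binding protein, had 7.37 and 6.74 in the triple mutant against 5.20 and 5.20 in the double mutant, and IDD16, a zinc finger factor of the INDETERMINATE DOMAIN family, had 4.83 and 4.13 in the triple mutant against 2.38 and 2.73 in the double mutant. CHR42, a chromatin remodelling ATPase, had 4.06 and 4.33 in the triple mutant against 2.50 and 2.59 in the double mutant, with the triple mutant just above and the double mutant below the filter level. In all of these except ECS1 the triple mutant arrays lay above the 6 others.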

How the data were processed

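The authors deposited log2 values per probe set, and the submitters' processing notes name GCRMA and R 2.7.2. GCRMA corrects background by probe sequence, quantile-normalises and summarises, and leaves dim probe sets at a floor near 2.1, so differences there have no measured lower end. Its settings are not stated in those notes.

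The table holds 22810 rows, of which 64 controls were left out. A linear model with empirical Bayes moderation (limma 3.58.1, R 4.3.3, two-sided, 2 residual degrees of freedom) compared the genotypes, with Benjamini-Hochberg adjustment over 13467 probe sets and a threshold of 0.05. Signed differences are triple minus double mutant. Where all arrays of 1 mutant lay at or below 4, a lower bound against 4 is given. Of the tested probe sets, 7258 name 1 gene, 260 several and 5949 none. Names came from the platform annotation, matched to the TAIR10.1 gene table (7247 matched) and used for names and gene order only. Each gene is represented by its brightest probe set.

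The rule for genes named in the text takes YAB5 and YAB3, up to 15 genes raised and 15 lowered most (9 lowered ones passed) with no overlap of arrays, called genes within 100 genes of YAB5, and from each list up to 4 members that passed or else the 2 of largest difference. Some list members that the rule selects are not given in the text. Genes outside it are marked as chosen after their values were seen, or stand as further members of a list. The members and the 29 gene lists were chosen with earlier results of these data known, and some families after values were seen. The replicate numbers do not pair the arrays (r = 0.0044 between replicate differences of the genotypes). Alternatives cover filters, scaling, spread and left-out arrays. In a test on simulated data, where 200 of 13467 probe sets were changed, it called 0% of those changed by 1 log2 unit, 40% by 2, 72% by 4 and 90% by 8, and 1.94% of calls were false. The simulation has no floor, no effect shared across an array and no selection by the filter through 1 genotype. Its errors were drawn independently for each value, so its share of false calls need not hold for these data. The number of arrays limits the precision. Figures were drawn with matplotlib 3.10.9.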

Additional observations from a re-analysis of the deposited data

Results flagged for a closer look

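In 9 of 88 genes examined, 1 of the 4 wild-type arrays lay apart from the other 3 by more than Dixon's critical value for 4 samples allows. Chance alone gives about 1 in 20. The ratio is the gap to the nearest array over the whole range. It was 0.945 for UF3GT and 0.834 for DFR, both high on wild-type array 4. It was 0.933 for HTB11, low on array 4, and 0.906 for NET4B, high on array 2. For 5 genes all wild-type arrays lie below 4: AT1G52100, AT5G05750 and EXPA20 with a ratio of 1, AT5G56910 with 0.913 and IDD16 with 0.947.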

How the results depend on the processing

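The 66 calls (51 raised, 15 lowered) depended on how the spread was estimated. With all 8 arrays as 3 groups 98 were called (79 raised, 19 lowered), 53 of them among the 66. Among the genes recomputed, that fit gained 4 calls and lost 4. The fit with the wild-type pairs as separate groups gained 19 and lost 0. Adding wild-type arrays 3 and 4 gave 153 (105 raised, 48 lowered), and adding the wild-type pairs as separate groups 240 (140 and 100), 63 of them among the 66. Quantile normalization gave 111 (77 and 34) and median centring 111 (78 and 33), with all 66 kept. No filter gave 31 (18 raised), with 14 of the 66 kept, and values below 4 set to 4 gave 25 (20 and 5), 23 of them among the 66. With the 3′ minus 5′ difference as a covariate limma called 0 (0 raised, 0 lowered), with 2031 at an unadjusted p under 0.05. The covariate and the replicate block each leave 1 residual degree of freedom. The replicate block called 2 (2 raised, 0 lowered), although the numbers do not pair the arrays. Leaving out 1 array gave 0 to 252 calls, 0 to 180 raised and 0 to 72 lowered. In the 4-array fit limma called 0 each time, with 945 to 3176 at an unadjusted p under 0.05. With wild type in the fit, 252 were called without double mutant array 2 and 113 (77 raised, 36 lowered) without double mutant array 1, and 23 and 24 were lowered without triple mutant array 1 and 2. In those fits the lone array is assumed to vary like the other groups.

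A window of 200 genes around YAB5 held 2 called genes. With 1 array left out the YAB3 difference ran from -0.041 to 1.59, SEU from -0.29 to 0.99, HIS1-3 from -0.21 to 5.50, UF3GT from -2.84 to 0.45, DFR from -2.73 to 0.82, STZ from -0.19 to 3.15 and GI from -0.36 to 0.39 (-0.020 without double mutant array 2). With the covariate SEU was -0.15 and GI -0.0027. Of these 7 genes only HIS1-3 passed anywhere, without double mutant array 1 and with wild type in the fit (adjusted p = 0.00882). Among the 88 genes recomputed under each alternative no other changed direction, and calls of named genes were lost 96 times and gained 42 times outside the fits with an array left out. The cause was not tested.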
